A study of Mus musculus with 6 samples.

Results

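The 35 genes described here encode the enzymes that make bile acids in the hepatocyte, the transporters that carry bile acids, phospholipid and sterol across its sinusoidal and canalicular membranes, and the receptor pair through which intestinal FGF15 restrains synthesis. They were taken by name from the 23282 genes of the deposited count table. Primary hepatocytes were isolated by collagenase perfusion from livers of C57BL/6N mice without a genetic modification named in the labels, plated for 3 h, and kept for a further 24 h either in fresh medium alone (control, 3 samples) or with IL-1β added as a recombinant protein (3 samples). Both groups therefore share the isolation, the plating and the culture, and no freshly isolated cells or intact liver are part of the series. The donor age and the IL-1β dose of the sequenced cultures are not given in the sources used here, and the series text speaks of 2 samples per group while listing 3. The comparison addresses what IL-1β, a cytokine released by activated macrophages, does to the hepatocyte transcriptome.

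Bile acids are made from cholesterol. In the classical route Cyp7a1 acts first, and in the alternative route the side chain is oxidised by Cyp27a1 before Cyp7b1 hydroxylates the ring, after which peroxisomal enzymes shorten the side chain and Slc27a5 and Baat attach taurine or glycine. Conjugated bile acids return in portal blood, enter the hepatocyte through sinusoidal carriers of the Slc10a1 and Slco families and leave through ATP-driven pumps of the canalicular membrane, while pumps of the sinusoidal membrane form a way back to blood. Inflammatory cytokines are known to lower many of these transcripts in liver, a change associated with cholestasis.

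Each library held between 9538741 and 11105408 counts, made by QuantSeq, which targets the 3′ ends of polyadenylated RNA. Rn45s, a ribosomal RNA precursor, took 11.69 to 14.19% of the counts of a library. Values are given as raw counts or as CPM (counts scaled by TMM to a common library total), and 3 counts in a library, taken as the limit of detection, correspond to 0.269 to 0.321 CPM. This limit covers counting error only. IL-1β was compared with control by the quasi-likelihood test of edgeR over all 11657 genes with enough counts, and a gene was called at a Benjamini-Hochberg adjusted p below 0.05. Nothing in the labels says whether the 3 samples of a group came from separate animals or cultures, so the p-values measure the spread between these samples, which may be technical. The permutation test of 3 samples against 3 is exact and gives a two-sided p of 0.1 at the least, the value for every gene whose groups do not overlap. In these bulk samples fewer cells of a type and less RNA per cell cannot be told apart.

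After IL-1β, Abcb4 and Abcg2, which export phospholipid and conjugates into bile, fell, whereas canalicular Atp8b1 rose and Abcc2 was not called. Abcc3 and Abcc4, which export conjugates and bile acids into blood, also rose. The calls of Atp8b1 and Abcc4 were lost in 6 and 8 of 15 alternatives. Of the enzymes Cyp7b1 rose and Scp2 fell. The largest called change of the members was the fall of Fgfr4, -1.93 on the log2 scale. Of the 35 members, 26 had enough counts for the test. Of these 26, 4 rose (15.4%), where 6.97% of all genes tested rose, and 5 fell (19.2%), where 6.44% of all genes tested fell. In either direction 34.6% of the tested members were called against 13.4% of all genes. The members were chosen with earlier results of these data known, so this contrast is not an independent test. The genes that rose were Cyp7b1, Atp8b1, Abcc3 and Abcc4, and those that fell were Scp2, Slco1a1, Abcb4, Abcg2 and Fgfr4. The IL-1β samples lay wholly above the controls in 5 tested members (14% of all genes) and wholly below them in 9 (14.2% of all genes). The median log2 fold change of the tested members was -0.24, while that of all genes was -0.002 and that of 11 tested hepatocyte markers was -0.30, with 7 of the 11 lower. Leaving out 1 sample at a time left between 2 and 4 members higher and between 4 and 6 lower. The 2 higher members that remained called in every such fit were Cyp7b1 and Abcc3, whereas 4 of the 5 lower members, all but Slco1a1, stayed called.

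**Figure D1:**
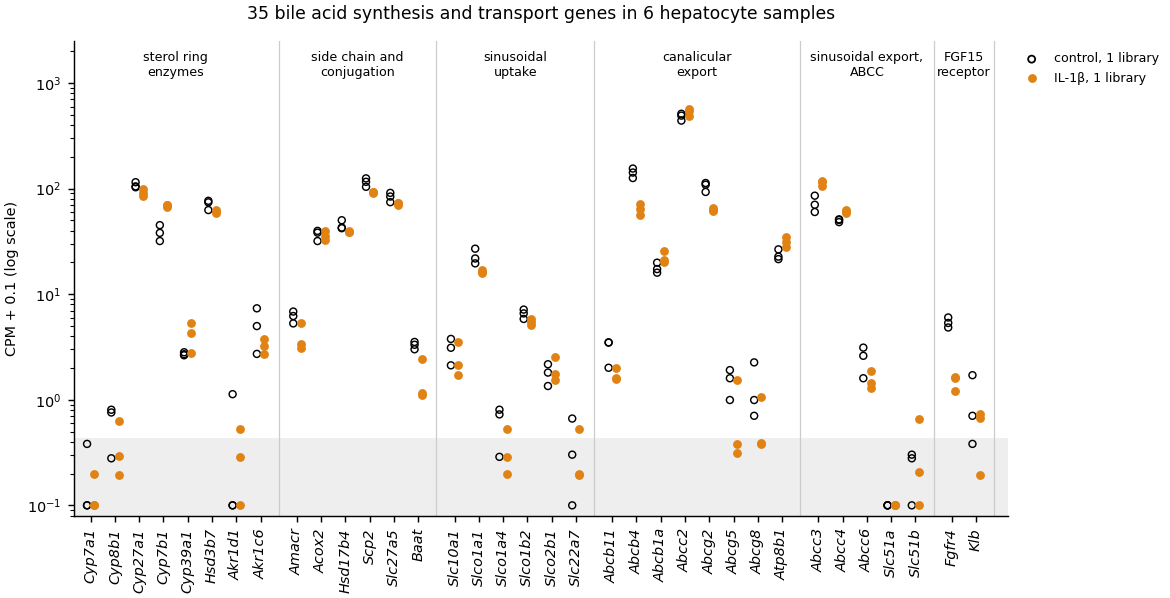
CPM + 0.1 of all 35 members on a log axis, arranged by role, with 1 point per library (open circles, 3 controls; filled circles, 3 IL-1β samples). The grey band marks values at or under 3 counts in the library with the highest limit (0.321 CPM), and all points of Cyp7a1 and Slc51a lie within it, while Abcc2 lies at 441 to 574 CPM in all 6 libraries.

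The start regions of 5 members are shown here for 2 reasons. Abcb4, Abcg2 and Slco1a1 had the 3 largest called decreases among members with at least 10 CPM. The other pair, Cyp8b1 and Klb, were chosen after the search below because their windows hold a searched motif. Each sequence is the run of 250 bases that ends just before the RefSeq transcription start on GRCm38.p6, read 5′ to 3′ on the strand of the gene. The positions are chr5:8893471-8893720 on the plus strand for Abcb4, chr6:58596422-58596671 on the plus strand for Abcg2, chr6:141946963-141947212 on the minus strand for Slco1a1, chr9:121916306-121916555 on the minus strand for Cyp8b1, and chr5:65348161-65348410 on the plus strand for Klb. Capitals mark a match to a searched motif.
Abcb4: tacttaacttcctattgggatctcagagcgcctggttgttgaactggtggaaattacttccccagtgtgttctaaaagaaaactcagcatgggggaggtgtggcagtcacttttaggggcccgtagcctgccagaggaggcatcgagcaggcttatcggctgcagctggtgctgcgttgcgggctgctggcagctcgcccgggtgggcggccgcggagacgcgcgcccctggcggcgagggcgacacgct
Abcg2: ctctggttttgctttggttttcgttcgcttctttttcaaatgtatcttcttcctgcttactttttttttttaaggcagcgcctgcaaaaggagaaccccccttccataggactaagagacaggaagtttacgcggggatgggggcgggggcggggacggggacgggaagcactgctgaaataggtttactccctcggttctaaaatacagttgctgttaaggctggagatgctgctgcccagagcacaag
Slco1a1: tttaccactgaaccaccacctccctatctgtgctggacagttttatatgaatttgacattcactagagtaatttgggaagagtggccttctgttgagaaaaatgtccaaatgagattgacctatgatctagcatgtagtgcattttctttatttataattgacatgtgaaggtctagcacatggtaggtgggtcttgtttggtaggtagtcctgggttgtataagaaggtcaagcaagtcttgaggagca
Cyp8b1: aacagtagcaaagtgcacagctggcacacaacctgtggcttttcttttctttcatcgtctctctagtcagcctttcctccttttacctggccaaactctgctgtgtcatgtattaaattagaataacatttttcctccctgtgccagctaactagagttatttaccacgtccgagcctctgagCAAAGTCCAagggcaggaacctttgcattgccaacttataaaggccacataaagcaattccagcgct
Klb: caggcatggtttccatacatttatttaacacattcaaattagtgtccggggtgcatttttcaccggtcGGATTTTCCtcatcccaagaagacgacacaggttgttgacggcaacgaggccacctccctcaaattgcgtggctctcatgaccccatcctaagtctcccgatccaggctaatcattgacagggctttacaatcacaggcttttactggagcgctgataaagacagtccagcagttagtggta

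Both strands of these windows were searched for 3 motifs, CAAAGTCCA for HNF4, CAAGGTCA for NR5A2 and GGANTTTCC as the core bound by NF-κB. None of the 3 overlaps another in the 5 windows shown. RefSeq start regions were matched for 24 of the 35 members, by the listed start nearest the deposited one. For Abcb1a that start lay 93001 bases away. Only 1 window was taken per member, while the windows listed for all genes can include several of a gene. The HNF4 letters occurred in 1 of these 24 (4.17%), Cyp8b1, where they begin 67 bases before the start, and in 0.384% of 32851 windows listed for all genes. The κB core occurred in 1 of the 24, Klb, beginning 182 bases before the start, and in 1.07% of all windows. The NR5A2 letters were found in 0 of the 24 members and in 1.33% of all windows. The windows of Abcb4, Abcg2 and Slco1a1 hold none of the 3 letter runs, which says only that these letters are not in these 250 bases.

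Of the enzymes acting on the sterol ring, Cyp7b1 alone passed the test. Of 8 listed, 5 were tested, 1 rose and 0 fell, where 6.97% of all genes tested rose and 6.44% fell. The median log2 fold change of the 5 was -0.24, against -0.002 for all genes tested. Cyp7b1, the hydroxylase that follows Cyp27a1 in the alternative route and also inactivates oxysterols, was the enzyme that rose. It was at 31.8, 45 and 38.0 CPM in the controls and at 69.2, 66.5 and 70.5 CPM after IL-1β, and every IL-1β sample lay above every control. The log2 fold change was 0.84 (SE 0.11, adjusted p = 2.3e-06, edgeR), a gain of 79.4%, and it ranged from 0.72 to 0.98 over all alternatives tried. Cyp27a1, the mitochondrial hydroxylase that opens the alternative route, was at 105, 115 and 103 CPM in the controls and at 90.1, 85.1 and 98.8 CPM after IL-1β. The Cyp27a1 groups do not overlap, but its log2 fold change of -0.24 (SE 0.08, 95% interval -0.41 to -0.07, edgeR) had an adjusted p of 0.0526. It was called lower at -0.30 without IL-1β replicate 3 (adjusted p = 0.0415), at -0.26 without control replicate 1 (adjusted p = 0.0351) and in 5 further alternatives, so that its call turns on the setting. Hsd3b7, the oxidoreductase that follows ring hydroxylation in both routes, had a log2 fold change of -0.24 (SE 0.09, adjusted p = 0.105, edgeR), with 71.1 ± 7.46 CPM (SD, n = 3) in controls and 60.4 ± 2.28 CPM (SD, n = 3) after IL-1β. Without control replicate 2 it was called lower at -0.32 (adjusted p = 0.0342). The last 500 bases of its transcript are wholly contained in a second annotated gene, Gm49388, so reads there may count for either.

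Cyp7a1, Cyp8b1 and Akr1d1 were barely detected in either group. Cyp7a1, the rate-limiting enzyme of the classical route, had 3, 0 and 0 counts in the controls and 0, 1 and 0 after IL-1β. Cyp8b1, which directs synthesis towards cholic acid, had 7, 2 and 7 counts in the controls and 5, 2 and 1 after IL-1β. Akr1d1, the reductase that saturates the ring, had 11, 0 and 0 counts in the controls and 4, 0 and 2 after IL-1β. All 3 were below the minimum for the test, their groups overlap, and a change was not detectable at this depth. The remaining ring enzymes were measured at a few CPM. Cyp39a1, an oxysterol hydroxylase, went from 2.62 ± 0.0939 to 4.05 ± 1.28 CPM (SD, n = 3), which is 0.62 on the log2 scale with a 95% interval from -0.09 to 1.34 (adjusted p = 0.294, edgeR). Akr1c6, an aldo-keto reductase, went from 4.92 ± 2.32 to 3.11 ± 0.516 CPM (SD, n = 3), with a log2 fold change of -0.67 and a 95% interval from -1.38 to 0.05 (adjusted p = 0.255, edgeR). The controls of Akr1c6 alone spread from 2.62 to 7.25 CPM.

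All 6 genes for side chain shortening and conjugation had log2 fold changes below 0, and 1 of them, Scp2, passed the test. Their median log2 fold change was -0.26, and in 4 of the 6 the IL-1β samples lay wholly below the controls. The same held for 14.2% of all genes tested, and 3 of these 4 were not called. Among all genes tested 6.44% were called lower. Scp2, whose products include the peroxisomal thiolase of the last shortening step, was counted per gene, so the thiolase transcript was not measured apart. Scp2 was at 125, 104 and 116 CPM in the controls and at 92.6, 91.5 and 93.1 CPM after IL-1β. It fell by 0.32 on the log2 scale (SE 0.08, adjusted p = 0.00797, edgeR), and the call held in all 15 alternatives with the same call rule. Its fall of 19.6% did not reach the fold change of 1.5 used in a further rule. Of the 75-base windows in the last 500 bases of its transcript, 59.9% also occur in the pseudogene Scp2-ps2. Slc27a5, the ligase that activates bile acids for conjugation, was at 91.1, 84.1 and 74.4 CPM in controls and 73.3, 69.8 and 72.8 CPM after IL-1β, close together but without overlap. The log2 fold change of Slc27a5 was -0.21 (SE 0.09, adjusted p = 0.134, edgeR), and -0.29 (adjusted p = 0.0492) without control replicate 3. Baat, which joins the activated bile acid to taurine or glycine, was at 2.91, 3.22 and 3.43 CPM in the controls and 1.07, 2.31 and 1.02 CPM after IL-1β. Its log2 fold change of -1.11 (SE 0.41, 95% interval -1.96 to -0.26, edgeR) had an adjusted p of 0.0816 at 10 to 36 counts per library, and -1.59 (adjusted p = 0.0422) without IL-1β replicate 2.

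Of the other shortening enzymes, none passed the test. Hsd17b4, the bifunctional protein of the peroxisome, was at 45 ± 4.45 CPM in the controls and 39.1 ± 0.218 CPM (SD, n = 3) after IL-1β, with a fold change of -0.20 on the log2 scale (adjusted p = 0.241, edgeR). Amacr, the racemase that prepares the side chain, had a log2 fold change of -0.64 (95% interval -1.24 to -0.05, adjusted p = 0.17, edgeR) from 6.02 ± 0.783 to 3.83 ± 1.2 CPM (SD, n = 3). For Acox2, the oxidase of the same step, the groups overlapped at 31.8 to 39.7 CPM in controls and 32.8 to 39.5 CPM after IL-1β. The Acox2 log2 fold change of -0.02 had a 95% interval from -0.26 to 0.22 (adjusted p = 0.947, edgeR).

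**Figure D2:**
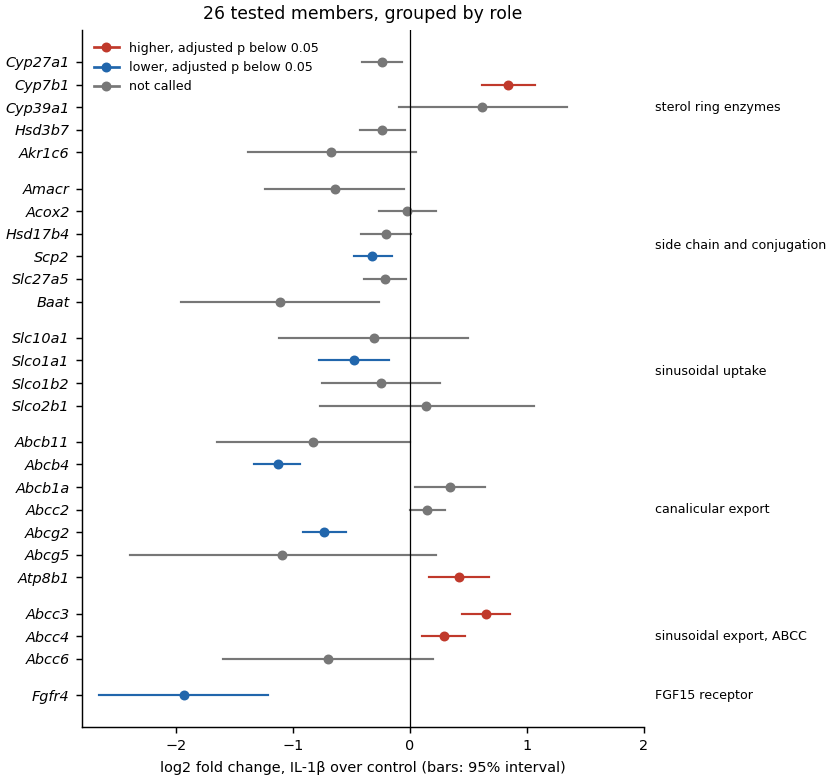
Log2 fold change of IL-1β over control for the 26 tested members (points) with 95% intervals (bars), arranged by role and coloured by call at an adjusted p below 0.05. The intervals of Abcb4 (-1.33 to -0.94), Abcg2 and Fgfr4 lie wholly below 0, those of Cyp7b1 and Abcc3 wholly above, and that of Abcg5 runs from -2.39 to 0.22.

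The sinusoidal uptake carriers other than Slco1a1 were low in both groups. Of the 4 tested, 1 fell and 0 rose, where 6.44% of all genes tested fell and 6.97% rose. Slc10a1, which encodes NTCP, the sodium-dependent carrier of conjugated bile acids, had 32, 41 and 20 counts in the controls and 32, 17 and 22 after IL-1β. These are 3.01, 3.67 and 2.02 CPM against 3.42, 1.63 and 2.05 CPM, and the groups overlap. The log2 fold change of Slc10a1 was -0.31 (SE 0.39, adjusted p = 0.716, edgeR), with a 95% interval from -1.12 to 0.50. Slco1a1, a sodium-independent organic anion carrier, was the uptake gene that fell, from 26.9, 19.5 and 21.7 CPM to 15.7, 16.7 and 16.2 CPM. Its log2 fold change of -0.48 (SE 0.15, edgeR) had an adjusted p of 0.0257 and the groups do not overlap. DESeq2 gave an adjusted p of 0.0559, and the call was also lost without IL-1β replicate 1 (0.0968), IL-1β replicate 2 (0.0672), IL-1β replicate 3 (0.0875) or control replicate 1 (0.159). Without that last library, the highest control, the log2 fold change of Slco1a1 was -0.34.

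Slco1b2, the carrier that takes up unconjugated bile acids and bilirubin, was at 6.42 ± 0.664 CPM in controls and 5.39 ± 0.370 CPM (SD, n = 3) after IL-1β. For Slco1b2 the log2 fold change was -0.25 (95% interval -0.75 to 0.26, adjusted p = 0.615, edgeR). Slco2b1 was at 1.68 ± 0.408 and 1.86 ± 0.533 CPM (SD, n = 3), with a log2 fold change of 0.14 and a 95% interval from -0.77 to 1.06 (adjusted p = 0.905, edgeR). The groups of both genes overlap. Slco1a4 had 2, 7 and 7 counts in the controls against 4, 1 and 2 after IL-1β, and Slc22a7, an organic anion transporter, had 6, 0 and 2 against 4, 1 and 1. Neither had enough counts for the test. Slco1b2, Slco1a4 and Slco1a1 lie on chromosome 6 between 141629518 and 141946962 on mm10, and no 75-base window at their 3′ ends is shared with another annotated gene.

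The canalicular exporters moved in both directions, although the call of the 1 that rose, Atp8b1, was lost in 6 of 15 alternatives. Of the 7 tested, 2 fell, 1 rose and 4 were not called, where 6.44% of all genes tested fell and 6.97% rose. The median log2 fold change of the 7 was -0.73, against -0.002 for all genes tested. Abcb4, which encodes the floppase that delivers phosphatidylcholine to bile (chr5:8893721-8959226 on mm10), had the smallest adjusted p of all members. It was at 155, 142 and 126 CPM in the controls and at 64.5, 56.6 and 71.2 CPM after IL-1β, so that the highest IL-1β sample lay far below the lowest control. Abcb4 fell by 1.13 on the log2 scale (SE 0.09, adjusted p = 8.9e-10, edgeR), its CPM fell by 54.5%, and the change stayed between -1.22 and -1.05 in all 15 alternatives. Of the windows at its 3′ end, 5.63% also occur in transcripts of the neighbours Abcb1a and Abcb1b, whose own log2 fold changes were 0.34 and 0.63. Abcg2, the efflux pump for urate, porphyrins and sulphated conjugates (chr6:58596672-58692451 on mm10), was at 93.0, 109 and 113 CPM in the controls and at 62.5, 65.7 and 61.3 CPM after IL-1β, again without overlap. It fell by 0.73 (SE 0.09, adjusted p = 8.2e-07, edgeR), its CPM fell by 39.7%, and it stayed called in all 15 alternatives. Their start regions are the first pair of sequences printed above.

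The pump that sets bile acid output was not called. Abcb11, which encodes the bile salt export pump, had 36, 38 and 19 counts in the controls and 14, 20 and 16 after IL-1β. These are 3.38, 3.40 and 1.91 CPM against 1.5, 1.92 and 1.49 CPM, where 1 control falls within the range of the IL-1β samples. Its log2 fold change of -0.83 had a 95% interval from -1.65 to 0.00 (SE 0.40, adjusted p = 0.214, edgeR). Abcg5 and Abcg8 encode the subunits of the sterol exporter, lie on opposite strands of chromosome 17 and overlap by 6622 bp in the deposited coordinates, away from either 3′ end. Abcg5 had 16, 10 and 18 counts in the controls and 2, 15 and 3 after IL-1β, and its log2 fold change of -1.09 (95% interval -2.39 to 0.22) had an adjusted p of 0.322 (edgeR). Abcg8 had 23, 10 and 6 counts against 9, 3 and 3 and was not tested. In both subunits 1 sample of the IL-1β group lay within the range of the controls.

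Abcc2, which encodes MRP2, the canalicular pump for bilirubin glucuronide and glutathione conjugates, did not share the fall of Abcb4 and Abcg2. It was at 441, 492 and 512 CPM in the controls and at 487, 574 and 544 CPM after IL-1β, with overlapping groups. The log2 fold change of Abcc2 was 0.15 (SE 0.07, adjusted p = 0.193, edgeR), with a 95% interval from 0.00 to 0.30 that lies wholly above those of Abcb4 and Abcg2. Abcb1a, a P-glycoprotein that extrudes hydrophobic drugs, was at 15.9, 19.8 and 17.2 CPM in the controls and at 21.2, 25.8 and 19.9 CPM after IL-1β. The groups touch without overlap, and the log2 fold change of 0.34 (SE 0.14) had an adjusted p of 0.142 (edgeR). Atp8b1, the flippase that keeps phosphatidylserine on the inner leaflet of the canalicular membrane, rose. It was at 26.5, 22.6 and 21.4 CPM in the controls and at 35, 31.4 and 28.2 CPM after IL-1β, which is 0.42 on the log2 scale (SE 0.13, adjusted p = 0.0255, edgeR). The Atp8b1 call is close to the threshold: the adjusted p was 0.0502 with DESeq2, 0.0505 with library totals as the only scaling, 0.149 without IL-1β replicate 1, 0.0745 without IL-1β replicate 2, 0.086 without control replicate 2 and 0.114 without control replicate 3.

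Of the exporters that face blood and their ABCC relatives, 3 of 5 were tested. Of these 3, 2 rose and 0 fell, where 6.97% of all genes tested rose and 6.44% fell. Abcc3, which encodes MRP3, a basolateral pump for bile acid and drug glucuronides (chr11:94343295-94392976 on mm10), was at 85.7, 60.0 and 70.3 CPM in the controls and at 115, 107 and 117 CPM after IL-1β. All IL-1β samples lay above all controls. The log2 fold change of Abcc3 was 0.65 (SE 0.10, adjusted p = 2.8e-05, edgeR), a gain of 57.1%, and it stayed between 0.54 and 0.80 and called in all 15 alternatives. Abcc4, which encodes MRP4, a basolateral pump that exports bile acids together with glutathione, was at 50.4, 48.1 and 51.1 CPM in the controls and at 58.2, 61.2 and 62.7 CPM after IL-1β. The groups do not overlap, and the log2 fold change was 0.29 (SE 0.09, adjusted p = 0.0352, edgeR). This smaller rise lost its call with DESeq2 (adjusted p = 0.0513), upper-quartile scaling (0.0612) and library totals (0.108), and without IL-1β replicate 1 (0.0522), 2 (0.103) or 3 (0.127) or control replicate 2 (0.115) or 3 (0.0642), while its log2 fold change stayed between 0.23 and 0.32.

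Abcc6, a relative of these pumps that mediates ATP release from hepatocytes, was at 2.34 ± 0.773 CPM in controls and 1.43 ± 0.304 CPM (SD, n = 3) after IL-1β. On the log2 scale the fold change was -0.70 (95% interval -1.60 to 0.20, adjusted p = 0.367, edgeR). The heteromeric bile acid exporter of the sinusoidal membrane was at the limit of detection. Its subunit gene Slc51a had 0 counts in all 6 libraries, which allows up to 0.269 to 0.321 CPM in a library. The partner Slc51b had 0, 2 and 2 counts in the controls and 1, 0 and 6 after IL-1β, and its 3′ end lies within Rasl12 on the opposite strand. Whether counting used the strand is not given in the sources used here.

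**Figure D3:**
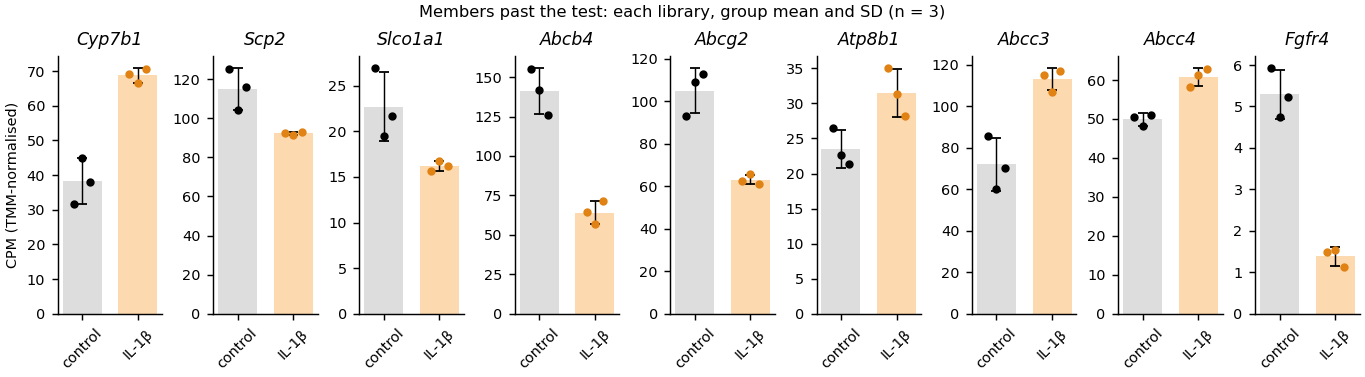
CPM of the 9 members past the test on linear axes that start at 0 (bars, group mean; error bars, SD, n = 3; points, libraries). In each of the 9 panels the 3 IL-1β points lie wholly above (Cyp7b1, Atp8b1, Abcc3, Abcc4) or wholly below (Scp2, Slco1a1, Abcb4, Abcg2, Fgfr4) the 3 control points.

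The receptor for FGF15, the intestinal hormone that represses Cyp7a1, showed the largest called change of the members. Fgfr4, its kinase subunit (chr13:55152818-55168759 on mm10), had 63, 53 and 52 counts in the controls and 14, 16 and 12 after IL-1β. These are 5.92, 4.74 and 5.24 CPM against 1.5, 1.54 and 1.12 CPM, with a wide gap between the groups. Fgfr4 fell by 1.93 on the log2 scale (SE 0.35, adjusted p = 2.9e-04, edgeR), its CPM fell by 73.8%, and it stayed called in all 15 alternatives at values from -2.02 to -1.40. Klb, which encodes the co-receptor β-klotho, had 3, 18 and 6 counts in the controls and 6, 6 and 1 after IL-1β, too few for the test. Its window, printed above, is the member window with the κB core.

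The regulators of these genes were read from a list of 27 names, of which 25 are in the table, 21 were tested, 2 rose and 4 fell. Their median log2 fold change was -0.10, against -0.002 for all genes tested, of which 6.97% rose and 6.44% fell. Hnf4a, the nuclear receptor that maintains hepatocyte gene expression and whose motif is marked in the Cyp8b1 window, was at 84.6, 91.2 and 87.2 CPM in the controls and at 41.7, 43.8 and 42.6 CPM after IL-1β. It fell by 1.04 on the log2 scale (SE 0.09, adjusted p = 1.6e-09, edgeR), without overlap of the groups. Prox1, a homeobox factor that acts as a corepressor with Hnf4a and Nr5a2, fell from 16 ± 1.35 to 8.44 ± 0.576 CPM (SD, n = 3), which is -0.92 on the log2 scale (SE 0.17, adjusted p = 4.0e-04, edgeR). Neither Nr1h4 nor Nr5a2 was called. Nr1h4, which encodes the bile acid receptor FXR, had a log2 fold change of -0.20 (95% interval -0.58 to 0.18, adjusted p = 0.583, edgeR) at 13.7 ± 2.91 and 11.9 ± 1.22 CPM (SD, n = 3). Nr5a2, which encodes LRH-1, was at 45.5 ± 0.524 and 45.5 ± 1.23 CPM (SD, n = 3), with a 95% interval of the log2 fold change from -0.19 to 0.20 (adjusted p = 0.997, edgeR). Nr0b2, the FXR target SHP that represses synthesis, had 11, 10 and 1 counts in the controls and 6, 3 and 0 after IL-1β and was not tested.

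The regulators that rose did so by small amounts. Mafg, a repressor of bile acid genes downstream of FXR, went from 171 ± 16 to 215 ± 19.4 CPM (SD, n = 3), which is 0.33 on the log2 scale (SE 0.08, adjusted p = 0.00485, edgeR). Egr1, an immediate early factor, rose by 0.23 on the log2 scale (SE 0.07, adjusted p = 0.0252, edgeR), and lost its call without IL-1β replicate 1 (0.0937), IL-1β replicate 3 (0.075), control replicate 2 (0.0685) or control replicate 3 (0.0843). The other called decreases of the list, Nr1i2 at -0.77 (the xenobiotic receptor PXR) and Rara at -0.47 (a retinoic acid receptor), were each lost in 4 of the 6 fits that leave out a sample. Of Nr1i2 the adjusted p was then up to 0.187, without IL-1β replicate 2, and of Rara up to 0.155, without the same library. The count of called decreases in the list was therefore 2 to 4 over these fits, and 2 with DESeq2.

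Of 18 further genes listed around bile acid metabolism, 14 were tested, 0 rose and 5 fell, with a median log2 fold change of -0.21. Over all genes tested 6.97% rose, 6.44% fell and the median was -0.002. In a list this short, 0 rises is near that share. Cyp2c70, which makes muricholic acids in the mouse, was at 25.4, 27.1 and 24.8 CPM in the controls and at 9.30, 11.7 and 8.55 CPM after IL-1β. It fell by 1.38 (SE 0.15, adjusted p = 2.0e-07, edgeR), without overlap. Acaa1b, a peroxisomal thiolase, fell by 1.26 (SE 0.12, adjusted p = 2.9e-08, edgeR) from 44.1 ± 5.22 to 18.4 ± 1.93 CPM (SD, n = 3). Ugt2b1, a glucuronosyltransferase, fell by 0.97 (SE 0.09, adjusted p = 1.3e-08, edgeR), and Cyp3a11, which hydroxylates bile acids and drugs, fell by 0.56 (SE 0.08, adjusted p = 2.5e-05, edgeR). The fifth, Acot12, had a log2 fold change of -1.21. A place in this broad list does not assign a gene a step of bile acid synthesis.

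Other hepatobiliary transporters held the largest rise among the members and the 4 pathway lists. Of 22 listed, 19 were tested, 5 rose and 2 fell, and the median log2 fold change was -0.10. Over all genes tested 6.97% rose, 6.44% fell and the median was -0.002. Abcc1, which encodes MRP1, a basolateral pump of glutathione conjugates, was at 8.55, 14.7 and 16.9 CPM in the controls and at 75.8, 78.1 and 79.9 CPM after IL-1β. It rose by 2.54 on the log2 scale (SE 0.15, adjusted p = 1.1e-12, edgeR), a larger change than that of Abcc3 or Abcc4, whose 95% intervals end at 0.86 and 0.47 while that of Abcc1 begins at 2.24. Slc16a1, the monocarboxylate carrier MCT1, went from 108 ± 3.06 to 254 ± 13.5 CPM (SD, n = 3), which is 1.23 on the log2 scale (SE 0.07, adjusted p = 1.1e-12, edgeR). Abca1, the sinusoidal exporter of cholesterol to apolipoproteins, rose by 1.01 (SE 0.09, adjusted p = 6.6e-09, edgeR). Abcb1b, the second P-glycoprotein of the mouse, rose by 0.63 (SE 0.12, adjusted p = 3.1e-04, edgeR) from 27.3 ± 2.81 to 42.3 ± 4.10 CPM (SD, n = 3), beside 0.34 for Abcb1a. The remaining called genes were Npc2 at 0.27, Slc22a18 at -0.75 and Slc47a1, the canalicular cation exporter MATE1, at -1.47.

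Genes of canalicular trafficking and polarity were called mostly as lower. Of 17 in the table, all 17 were tested, 1 rose and 5 fell, with a median log2 fold change of -0.11. Over all genes tested 6.97% rose, 6.44% fell and the median was -0.002. Slc9a3r1, a scaffold that anchors canalicular transporters to the cytoskeleton, rose by 0.84 (SE 0.09, adjusted p = 9.4e-08, edgeR) from 46.6 ± 2.30 to 83.3 ± 3.80 CPM (SD, n = 3). Anpep, a canalicular peptidase, fell by 1.42 (SE 0.19, adjusted p = 3.4e-06, edgeR) from 18 ± 3.33 to 6.73 ± 0.427 CPM (SD, n = 3). Myo5b, the motor that brings recycling vesicles to the canaliculus, fell by 0.63 (SE 0.14, adjusted p = 0.00262, edgeR). Dpp4 at -0.82 and Ceacam1 at -0.89 were also called lower. Without IL-1β replicate 1 neither was called (adjusted p = 0.0662 and 0.0895), which left 3, and Dpp4 was also lost without IL-1β replicate 2 (0.103) and Ceacam1 without control replicate 1 (0.0694).

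**Figure D4:**
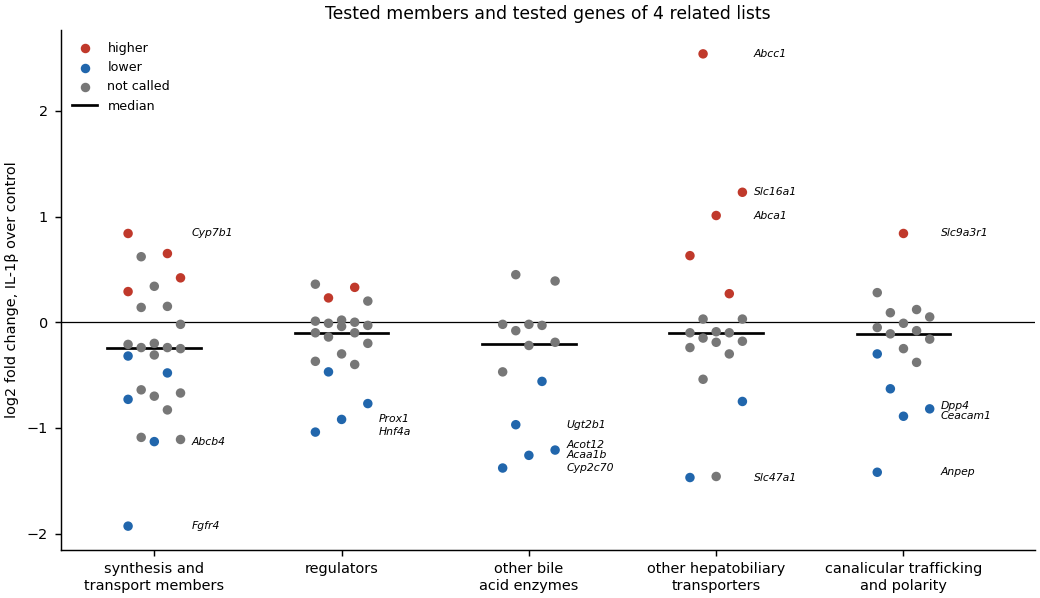
Log2 fold change of IL-1β over control for the 26 tested members and the tested genes of 4 further lists (points, genes coloured by call at an adjusted p below 0.05; black lines, medians of -0.24, -0.10, -0.21, -0.10 and -0.11 from left to right). Abcc1 stands highest at 2.54, and Fgfr4 lowest at -1.93; called genes beyond 0.8 in either direction are named.

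Called markers of the labelled cell type were all lower, while the called members went both ways, 4 higher and 5 lower. Alb, the most abundant hepatocyte marker, was at 15600 to 16600 CPM in the controls and 13500 to 14600 CPM after IL-1β, and fell by 0.20 on the log2 scale (SE 0.05, adjusted p = 0.0113, edgeR). Of 12 hepatocyte markers, 11 were tested, 0 rose and 7 fell with a median of -0.30, where 6.97% of all genes rose and 6.44% fell. Their summed level went from between 25100 and 25500 CPM to between 20900 and 21800 CPM. Trf, the transferrin gene, fell by 0.22 (SE 0.06, adjusted p = 0.00847, edgeR). The markers that encode secreted plasma proteins were abundant, but the urea cycle markers were low in both groups, Cps1 at 2.65 ± 0.765 CPM and Ass1 at 0.717 ± 0.466 CPM (SD, n = 3) in the controls. The part of this shift in the decreases of Scp2, Slco1a1, Abcb4, Abcg2 and Fgfr4 was not tested.

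Markers of other liver cells were read in the same way. Of the cholangiocyte markers the defining Krt7, Epcam, Cftr and Sctr had at most 2 counts in any library and Krt19 at most 6. In the same list Spp1 fell by 1.2 on the log2 scale (adjusted p = 4.4e-12, edgeR) from 190 ± 1.95 to 82.7 ± 5.17 CPM (SD, n = 3), and Aqp1 fell by 1.34 (adjusted p = 4.1e-04, edgeR). Tm4sf4 fell from 853 ± 39.8 to 715 ± 6.73 CPM (SD, n = 3) and Sox9 was at 134 ± 5.31 and 155 ± 5.86 CPM (SD, n = 3, adjusted p = 0.0519, edgeR). Of 12 listed, 6 were tested, 0 rose and 3 fell, where 6.97% of all genes rose and 6.44% fell. The summed level was 1140 to 1230 CPM in controls and 955 to 967 CPM after IL-1β. Macrophage markers were present in both groups. Of 13 Kupffer cell or macrophage markers, 10 were tested and 0 were called, with a median log2 fold change of 0.38, 7 of the 10 above 0 and summed levels of 247 to 279 and 254 to 287 CPM. The most abundant were Cd68 at 192 ± 17.4 and 184 ± 12.3 CPM and Ctss at 30.2 ± 2.23 and 29.8 ± 2.07 CPM (SD, n = 3). Marco (log2 fold change 0.67) and Cd74 (log2 fold change 0.56) had every IL-1β sample above every control without a call. Cd5l (log2 fold change -0.21) had every IL-1β sample below every control, also without a call. Among all genes tested, 14% lay wholly above and 14.2% wholly below. Of the resident Kupffer cell markers, Timd4 had at most 1 count in a library and Clec4f at most 27, while Cd5l was at 19.9 ± 0.627 and 17.2 ± 1.36 CPM (SD, n = 3). The endothelial list had 9 tested, with 1 higher (Lyve1) and 2 lower and summed levels of 90.1 to 97.7 and 86.1 to 95.8 CPM. The lower genes were Clec4g, which fell by 2.87 on the log2 scale (adjusted p = 1.9e-05, edgeR; 183 counts over the controls and 24 after IL-1β), and Kdr, which fell by 1.49 (adjusted p = 0.00511, edgeR), while Eng was at 29.2 ± 1.45 and 29.5 ± 3.66 CPM (SD, n = 3). The stellate cell list had 4 tested and 0 called at 41.6 to 45 and 44.2 to 48.8 CPM, with Sparc at 20 ± 0.618 and 20.2 ± 0.998 CPM and Dcn at 18.4 ± 2.13 and 20.3 ± 1.57 CPM (SD, n = 3). Of the neutrophil and lymphocyte list 5 genes were at 0 in all libraries and Nkg7 had 1 count in 1 control, while S100a8 had 0 counts in the 3 controls and 19, 36 and 51 after IL-1β. The part of these cells in the values of the members was not tested.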

How the data were processed

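RNA from 6 samples of cultured primary mouse hepatocytes was made into QuantSeq 3′ libraries and read as single-end 75-base reads. The authors aligned reads with Bowtie2 to mm10 (GRCm38), as named in the submitters' processing notes. The counting tool and the handling of reads matching several genes are not given in the sources used here. The authors deposited raw counts per gene, which were used here. Their log2 normalised values, group averages, linear fold changes and p-values were not used. Samples were grouped by their titles.

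Counts were tested in R 4.3.3 with edgeR 4.0.16 (filterByExpr, TMM, quasi-likelihood test, two-sided), with Benjamini-Hochberg adjustment over 11657 genes. CPM are TMM-scaled, the SE is the log2 fold change divided by the square root of F, and intervals are at 95%. The procedure was tested on simulated data. Role groups and lists are described by counts and medians. Members and lists were chosen with earlier results of these data known. Named beside the members were Hnf4a, Nr1h4, Nr0b2, Nr5a2, the 4 genes with the smallest adjusted p of each pathway list and the 2 most abundant of each marker list. A gene that this rule selects is not reported here. Other genes named (Nr1i2, Rara, Egr1, Acot12, Npc2, Slc22a18, Slc47a1, Dpp4, Ceacam1, Cps1, Ass1, Spp1, Aqp1, Clec4g, Kdr, Marco, Cd74, Cd5l and defining cell markers) were chosen after their values were seen, to complete a count. Deposited positions of all 35 members overlapped their RefSeq interval. Start regions are from RefSeq (GRCm38.p6), and transcript ends were compared in 75-base windows over the last 500 bases of the longest GENCODE vM21 protein-coding transcript. Nr1i1, E4bp4 and Nherf1 are older names of listed genes.

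Alternatives were DESeq2 1.42.0, upper-quartile scaling, library totals alone, no filter, at least 10 counts in every library, limma 3.58.1 on log2(CPM + 1) or log2(CPM + 0.1), the replicate number as a block, omission of Rn45s, an unadjusted p below 0.05 with a fold change over 1.5, and leaving out each sample. Tables used Python 3.11.15.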

Additional observations from a re-analysis of the deposited data

How the results depend on the processing

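Over the 15 alternatives with the same call rule, the calls of Cyp7b1, Scp2, Abcb4, Abcg2, Abcc3 and Fgfr4 held. DESeq2 left 2 members higher, as did library totals alone and the rule of an unadjusted p with a fold change over 1.5, and library totals alone gave 8 members lower. The rule of an unadjusted p with a fold change over 1.5 called 1034 genes in all, against 1563. It also gave 5 members lower, but with Baat and Amacr in place of Scp2 and Slco1a1. With samples left out in turn, all genes called ranged from 1131 to 1596, members higher from 2 to 4 and members lower from 4 to 6. The members' median was -0.32 with DESeq2 and with no filter, where 34 members enter, -0.30 with library totals, -0.27 with upper-quartile scaling and -0.28 to -0.21 with samples left out. Of genes called, 52.0% were higher by TMM and 39.6% with library totals alone, whose median over all genes was -0.055.

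By role, the sterol ring enzymes had 2 lower with library totals, 1 lower with limma on log2(CPM + 1), no filter, upper-quartile scaling or the replicate block, and 0 to 1 with samples left out. Side chain and conjugation had 2 lower with at least 10 counts in every library, library totals or limma on log2(CPM + 1), and 1 to 2 with samples left out. Sinusoidal uptake had 0 lower with DESeq2 and 0 to 1 with samples left out. Canalicular export had 0 higher with DESeq2 or library totals and 0 to 1 with samples left out. Sinusoidal export had 1 higher with DESeq2, library totals or upper-quartile scaling, and 1 to 2 with samples left out. Regulators had 1 higher with library totals or upper-quartile scaling and 2 lower with DESeq2, and 1 to 2 higher and 2 to 4 lower with samples left out. The trafficking list had 3 to 6 lower with samples left out. The uncalled log2 fold changes of Acox2 (-0.11 to 0.05) and Slco2b1 (-0.10 to 0.32) changed sign in those fits. The cause was not tested in any of these.

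Deviations of same-numbered samples correlated by 0.0616, 0.00793 and 0.0038, within the range of differently numbered samples (-0.0775 to 0.0755). Such values show no strong shared effect of the number, but cannot tell whether the samples were paired. With the replicate block 1671 genes were called, against 1563 without it, with 4 members higher and 6 lower. In every library 6 of 35 members had under 10 counts, too few for the test at this depth. Why these counts were low was not tested.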
